A study of Mus musculus with 10 samples.

Results

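The 10 genes described here were listed as genes of the megakaryocyte, the bone marrow cell that makes platelets, or of the platelet: Pf4, Selp, Itga2b, F2r, Vwf, Itgb3, Gp1bb, Gp9, Gp5 and Clec1b. They were chosen by name, with earlier results of these data known. All 10 were found among the 20270 genes of the deposited expression table by the gene symbol in its row names. Their levels were measured by RNA sequencing in hematopoietic stem cells (HSCs), from which all blood cells derive, in 10 mouse libraries. The cells were sorted by flow cytometry from C57BL/6 mice that had received a transplant of lineage-depleted (Lin-) bone marrow cells from Id1-/- or Id1+/+ donors. Id1 codes for a protein that binds E protein transcription factors and keeps them from DNA. Each genotype was present in a condition called normal and in one called stressed by the labels, which do not say what the stress was. The groups were KO normal (Id1-/-, 3 libraries), KO stressed (Id1-/-, 2 libraries), WT normal (Id1+/+, 3 libraries) and WT stressed (Id1+/+, 2 libraries). All 4 groups came from transplanted recipients, at 4 weeks after transplantation by the sample labels and at 6 weeks by the series design. The age and alleles of the recipients, the sort markers, and whether a library held 1 animal or a pool are not given in the sources used here, so the p-values measure only the spread between these libraries.

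Megakaryocytes arise from HSCs through progenitors that switch on genes for platelet adhesion receptors and for granule contents, and part of the HSC pool in mice already carries transcripts of this kind. The glycoprotein Ib-IX-V complex (Gp1ba, Gp1bb, Gp9 and Gp5) is the platelet receptor for von Willebrand factor (Vwf). Integrin alpha IIb (Itga2b, also known as CD41) and integrin beta 3 (Itgb3) pair to form the fibrinogen receptor. Megakaryocytes and their precursors depend on the hormone thrombopoietin and on transcription factors of the GATA and ETS families, among them Gata1 and Fli1.

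Promoter sequences are shown for 4 members: the pair with the largest differences between conditions averaged over genotypes (Pf4 and Selp), the gene with the most GATA matches (Gp5) and the gene with the fewest reads (Clec1b). The promoter set used here, from RefSeq on build GRCm38.p6 (mm10), covered 8 of the 10 genes and had no entry for Vwf and Itgb3. Each sequence is the 250 bases before the start, written 5′ to 3′ on the strand of the gene, and capitals mark GATA matches. None of these bases lies in an annotated exon.
Pf4 (chr5:90772185-90772434, plus strand): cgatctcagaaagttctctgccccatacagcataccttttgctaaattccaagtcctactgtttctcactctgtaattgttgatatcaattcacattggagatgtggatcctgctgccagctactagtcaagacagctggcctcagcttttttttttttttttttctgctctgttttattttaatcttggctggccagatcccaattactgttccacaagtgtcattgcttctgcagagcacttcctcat
Selp (chr1:164115014-164115263, plus strand): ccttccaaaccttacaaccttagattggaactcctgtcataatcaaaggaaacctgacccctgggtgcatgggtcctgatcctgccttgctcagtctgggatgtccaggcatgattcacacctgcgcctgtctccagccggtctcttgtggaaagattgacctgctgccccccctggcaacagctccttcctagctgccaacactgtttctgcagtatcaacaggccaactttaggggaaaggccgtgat
Gp5 (chr16:30310782-30311031, minus strand): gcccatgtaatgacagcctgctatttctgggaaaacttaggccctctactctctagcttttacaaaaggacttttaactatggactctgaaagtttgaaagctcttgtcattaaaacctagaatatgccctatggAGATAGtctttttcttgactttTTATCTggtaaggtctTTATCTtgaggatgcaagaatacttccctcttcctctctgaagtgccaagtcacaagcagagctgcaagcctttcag
Clec1b (chr6:129397047-129397296, plus strand): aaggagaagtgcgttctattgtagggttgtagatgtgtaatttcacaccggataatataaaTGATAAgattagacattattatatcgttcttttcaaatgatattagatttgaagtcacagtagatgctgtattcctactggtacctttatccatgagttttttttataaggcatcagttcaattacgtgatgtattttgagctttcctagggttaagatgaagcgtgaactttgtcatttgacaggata
The motifs searched on both strands were the GATA motif (spelled AGATAA, its variant TGATAA with another first letter, its variant AGATAG with another last letter, and the variant TGATAG with both), ETS (CCGGAA and its variant CAGGAA) and the E-box (CANNTG), the last being the type of site that E proteins bind. The window ran from 250 bases before to 50 bases after the start, a length of 300 bases, and positions are counted from +1 at the first transcribed base. Of the 8 members, 4 held a GATA match: Gp5 at -115, -93 and -77, Clec1b at -189 and +38, Gp1bb at -22 and Pf4 at +37. Among 32851 mouse promoters of this length, 29.8% held one. An ETS match was found in 3 of the 8, in Pf4 at +15, Itga2b at -52 and F2r at -112, against 41.4% of all promoters. Pf4 was the member with both kinds, which 11.4% of all promoters held. An E-box was found in 6 of the 8 (Pf4, Selp, Itga2b, F2r, Gp1bb and Clec1b), against 72.3% of all promoters. Selp and Gp9 held neither a GATA nor an ETS match. No match of one motif overlapped a match of another in these members. These are matches of letters, and no binding was measured. The start used for Itga2b lies inside its annotated gene, and 180 of the 250 bases before it are in annotated exons. The bases ahead of the annotated Itga2b gene were thus hardly searched. For Gp1bb all 250 bases before the start are in annotated exons.

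A level in CPM is a read count scaled to a common library total, here after normalization between libraries. At low levels 1 CPM stood for an estimated 25.7 to 33 reads. The total reads of a library cannot be read from such values. Id1, the targeted gene, was higher in the libraries labelled KO (8.44 to 13.2 CPM) than in those labelled WT (1.28 to 4.39 CPM), and it is not known from totals per gene whether the reads fell inside the deleted part. The terms KO-labelled and WT-labelled are therefore used throughout, and each direction between genotypes follows the labels. Transcripts of the HSC markers Kit (1350 to 1910 CPM), Hlf (286 to 492 CPM) and Slamf1 (57.3 to 85.9 CPM) were present in every library.

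Platelet lineage genes were higher in stressed than in normal HSCs of both labelled genotypes. A linear model over all 15143 genes tested (limma, on the log2 CPM values) called a gene changed where its adjusted p was under 0.05. With the 2 genotypes averaged, 7 of the 10 members were called higher in stressed HSCs (Selp, Pf4, Gp1bb, Gp5, F2r, Itga2b and Vwf) and 0 lower. Among all genes tested, 3.94% were called higher and 4.36% lower. The members were chosen with earlier results of these data known, so the shares set beside them are descriptions and not tests of the list. The median log2 difference of the members was 0.64, against 0.00 over all genes. In WT-labelled HSCs alone 6 members were called higher and 0 lower, where 1.55% of all genes were called higher and 1.75% lower. In KO-labelled HSCs alone 7 were called higher and 0 lower, where the shares of all genes were 2.23% and 2.28%. The 2 within-genotype comparisons share no library, but the spread of each gene was estimated from all 10 libraries, so their p-values are not independent. In the same 7 genes all 4 stressed libraries stood above all 6 normal libraries, an arrangement found in 4.44% of all genes tested. Within a genotype the stressed libraries stood above the normal ones in 9 members in WT-labelled HSCs, where 19.7% of all genes did so. In KO-labelled HSCs they did so in 9 members as well, against 16.5% of all genes. The exceptions were Clec1b in the first and Itgb3 in the second. Summed over the 10 genes, the level was 1360 to 1410 CPM in WT-labelled normal and 1270 to 1320 CPM in KO-labelled normal libraries. It was 2070 to 2100 CPM in WT-labelled stressed and 2080 to 2130 CPM in KO-labelled stressed libraries. In these bulk libraries, a larger share of cells that carry a transcript and more of it per cell cannot be told apart.

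**Figure D1:**
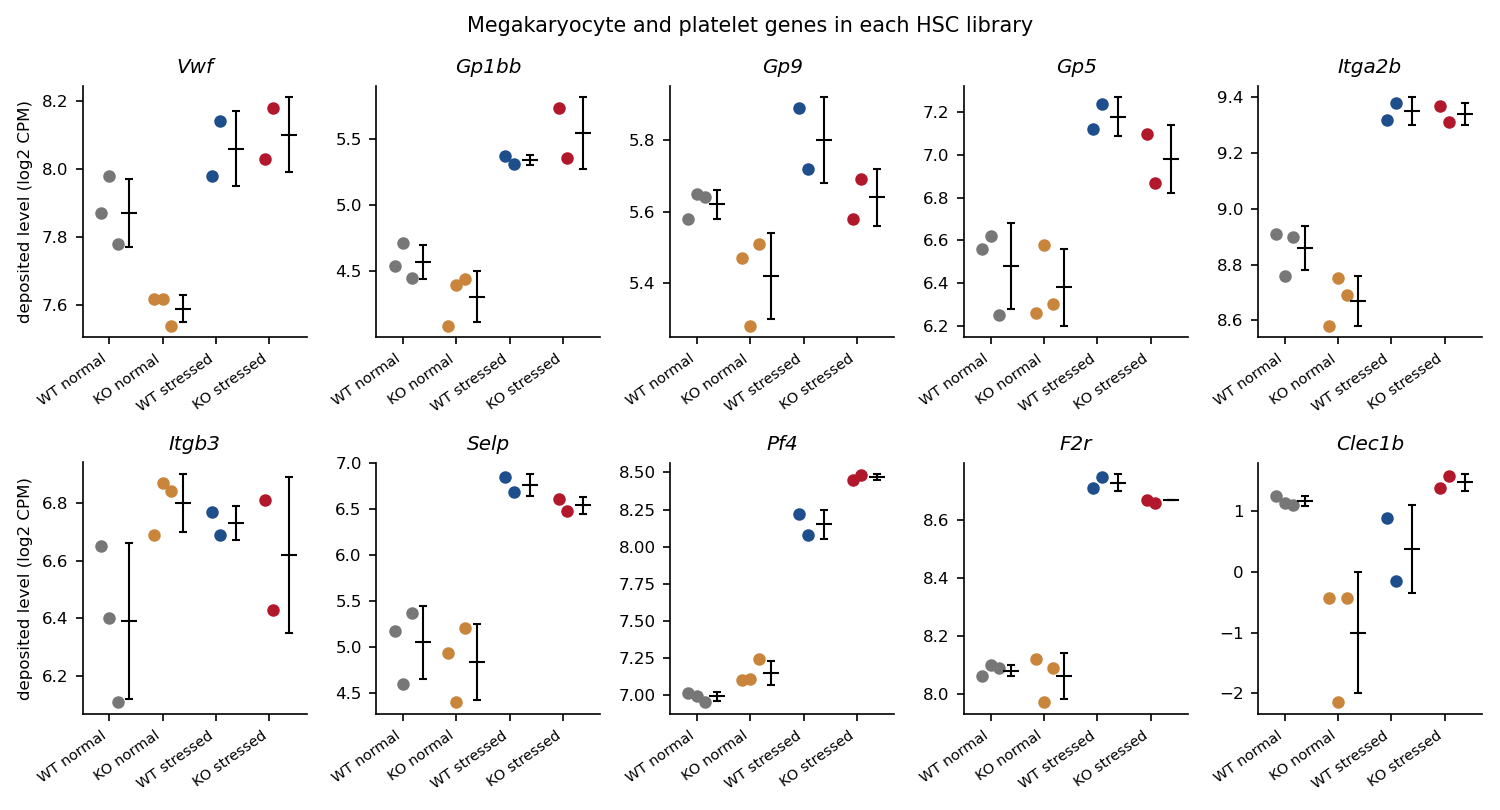
Deposited level (vertical axis, log2 CPM, a separate scale in each panel) of each of the 10 genes in each library, by group; each point is 1 library and the black mark beside it is the group mean with its SD (3 libraries in normal and 2 in stressed groups). In 7 panels, all 4 stressed libraries lie above all 6 normal libraries, and in the panels of Gp9, Itgb3 and Clec1b the conditions overlap.

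**Figure D2:**
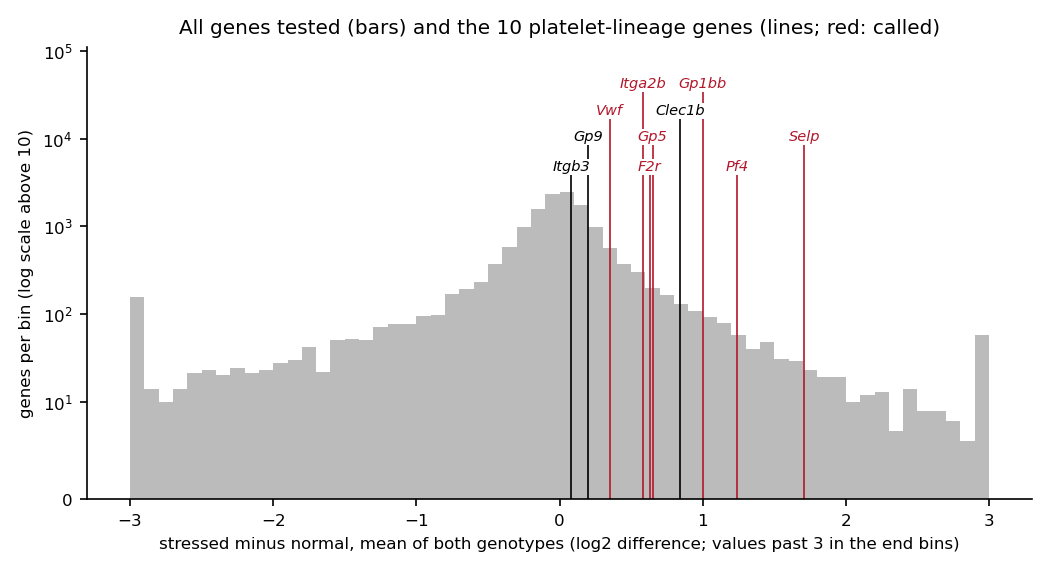
Histogram of the stressed minus normal log2 difference, averaged over both genotypes, for all 15143 genes tested (grey bars, bin width 0.1, count axis logarithmic above 10), with the members as vertical lines whose heights only carry the labels. The 7 called members (red) lie between 0.35 and 1.71, and Itgb3, Gp9 and Clec1b (black) were not called.

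Among the granule proteins, P-selectin (Selp) and platelet factor 4 (Pf4) had the largest differences of the 7 called genes. Selp (chr1:164115264-164150026, plus strand, 17 exon blocks) codes for an adhesion molecule that is held in the granules of platelets and endothelial cells and reaches the surface on activation. WT-labelled libraries A, B and C of the normal condition held 35.9, 24.3 and 41.3 CPM, and libraries A and B of the stressed condition 115 and 102 CPM. The level was 30.5, 21.1 and 36.9 CPM in KO-labelled normal libraries and 97.4 and 89.1 CPM in KO-labelled stressed libraries. The lowest stressed library thus stood more than 2-fold above the highest normal one, and library B was the lowest of each normal group. Between conditions WT-labelled HSCs differed by 1.71 on the log2 scale (SE 0.25, 3.28-fold, limma adjusted p = 0.0033), and KO-labelled HSCs by 1.70 (SE 0.25, 3.24-fold, limma adjusted p = 0.0026). Averaged over both it was 1.71 (SE 0.17, 95% interval 1.32 to 2.09), and 1.35% of all genes tested had a larger one. The antisense gene Gm16587 shares 186 exonic bases with Selp, and whether the counting used strand is not given in the sources used here. Its log2 level lay between -5.90 and -0.80 in normal and between -0.91 and 0.73 in stressed libraries, and its part in the Selp difference was not tested. A further antisense gene, Gm16548, shares 438 exonic bases and had log2 levels of -4.10 to -0.61 in normal and -2.97 to -0.81 in stressed libraries, which overlap.

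Pf4 (chr5:90772435-90773383, plus strand, 3 exon blocks) codes for a chemokine of the platelet alpha granule. Its level was 129, 127 and 124 CPM in WT-labelled normal libraries, a mean of 127 ± 2.73 (SD, n = 3), and 299 and 270 CPM in WT-labelled stressed libraries, a mean of 284 ± 20.2 (SD, n = 2). KO-labelled normal libraries held 138, 138 and 152 CPM (142 ± 7.82, SD, n = 3) and KO-labelled stressed libraries 350 and 357 CPM (354 ± 4.93, SD, n = 2). The 4 groups did not overlap in any pair, in the order KO-labelled stressed, WT-labelled stressed, KO-labelled normal and WT-labelled normal from high to low. The stressed libraries exceeded the normal ones on the log2 scale by 1.16 for WT-labelled HSCs (SE 0.074, 2.24-fold, limma adjusted p = 1.1e-05) and by 1.31 for KO-labelled HSCs (SE 0.074, 2.48-fold, limma adjusted p = 2.4e-06). With the genotypes averaged Pf4 differed by 1.24 (SE 0.052) and ranked 9 of 15143 genes by p-value (limma adjusted p = 1e-07).

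Von Willebrand factor and its receptor complex did not move as one. Vwf (chr6:125546774-125686679, plus strand, 56 exon blocks) codes for the large plasma and granule protein that tethers platelets to collagen, and it is also made by endothelial cells. WT-labelled libraries held 234, 252 and 220 CPM in the normal and 253 and 281 CPM in the stressed condition. KO-labelled libraries held 196, 197 and 186 CPM in the normal and 261 and 290 CPM in the stressed condition. The WT-labelled normal and stressed ranges all but touched, while the KO-labelled normal libraries were the 3 lowest of all 10. The log2 difference was 0.51 (SE 0.081, 1.42-fold, limma adjusted p = 0.0044) in KO-labelled HSCs. In WT-labelled HSCs it was 0.18 (SE 0.081, limma adjusted p = 0.28) and was not called. Averaged over both it was 0.35 (SE 0.057, limma adjusted p = 0.0032). Without KO-labelled stressed library B the KO-labelled difference was 0.44 and lost its call (limma adjusted p = 0.064).

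Gp1bb (chr16:18620317-18622403, minus strand, 1 exon block) codes for the beta chain of glycoprotein Ib. Its level was 23.2, 26.2 and 21.9 CPM in WT-labelled normal and 41.2 and 39.8 CPM in WT-labelled stressed libraries. In KO-labelled libraries it was 17, 21.2 and 21.7 CPM in the normal and 52.9 and 40.7 CPM in the stressed condition. KO-labelled stressed library A was the highest of the 10, and the other 3 stressed libraries lay close together. On the log2 scale the conditions differed by 0.77 for WT-labelled HSCs (SE 0.17, 1.71-fold, limma adjusted p = 0.033) and by 1.23 for KO-labelled HSCs (SE 0.17, 2.34-fold, limma adjusted p = 0.0021). The WT-labelled call was lost without any 1 of the 5 WT-labelled libraries, with adjusted p between 0.059 and 0.16 and differences of 0.72 to 0.85. Of its 2087 exonic bases, Gp1bb shares 1902 with Sept5 and 867 with Gm49601, both on the same strand. Gm49601 was not among the genes of the deposited table. How reads in shared bases were counted is not given in the sources used here, and its effect on the Gp1bb values was not tested. The log2 level of Sept5 was 0.11 to 0.87 in normal and 0.12 to 0.56 in stressed libraries.

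Gp5 (chr16:30307685-30310779, minus strand, 2 exon blocks), the glycoprotein V subunit and a substrate of thrombin, stood at 94.4, 98.6 and 76.1 CPM in WT-labelled normal and 139 and 151 CPM in WT-labelled stressed libraries. It stood at 76.4, 95.8 and 78.7 CPM in KO-labelled normal and 137 and 117 CPM in KO-labelled stressed libraries. The 2 normal groups overlapped, as both spanned about the same range, and the 4 stressed libraries lay above both. This gave a log2 difference between conditions of 0.70 for WT-labelled HSCs (SE 0.14, 1.63-fold, limma adjusted p = 0.018) and 0.61 for KO-labelled HSCs (SE 0.14, 1.52-fold, limma adjusted p = 0.031). The WT-labelled call was lost without WT-labelled normal library C or either WT-labelled stressed library (limma adjusted p 0.057 to 0.11). The KO-labelled call was lost without KO-labelled normal library A or C or either KO-labelled stressed library (limma adjusted p 0.072 to 0.22).

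Gp9 (chr6:87778072-87779768, plus strand, 2 exon blocks), the glycoprotein IX subunit that the complex needs to reach the surface, was not called. It stood at 47.7, 50.3 and 49.8 CPM in WT-labelled normal, 59.1 and 52.8 CPM in WT-labelled stressed, 44.4, 38.9 and 45.7 CPM in KO-labelled normal and 47.9 and 51.6 CPM in KO-labelled stressed libraries. Within each genotype the stressed libraries were the higher ones, by a log2 difference of 0.18 (SE 0.12) in WT-labelled and 0.21 (SE 0.12) in KO-labelled HSCs (limma adjusted p = 0.49 and 0.39). The interval of the averaged difference ran from 0.01 to 0.38, below the 0.73 to 1.27 of Gp1bb and the 0.44 to 0.87 of Gp5. Gp1ba, the chain that binds Vwf and is not one of the 10 genes, differed by 0.90 (SE 0.16, limma adjusted p = 0.0043), from 15.3 to 20.7 CPM in normal to 27.9 to 40 CPM in stressed libraries. Per kilobase of exon, the ratio of the Gp1bb level to the Gp9 level was 0.185 to 0.22 in WT-labelled normal and 0.294 to 0.318 in WT-labelled stressed libraries. It was 0.162 to 0.23 in KO-labelled normal and 0.333 to 0.466 in KO-labelled stressed libraries, so this ratio did not overlap between the conditions. Its absolute size is uncertain, as most exonic bases of Gp1bb are shared with Sept5.

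The 2 chains of the fibrinogen receptor also differed from each other. Itga2b (chr11:102453297-102470122, minus strand, 28 exon blocks) stood at 480, 434 and 479 CPM in WT-labelled normal and 638 and 668 CPM in WT-labelled stressed libraries. It stood at 382, 432 and 413 CPM in KO-labelled normal and 662 and 637 CPM in KO-labelled stressed libraries. All 4 stressed libraries lay within a narrow range, with the genotypes mixed, and well above the normal ones. As a log2 difference, stressed minus normal was 0.49 for WT-labelled HSCs (SE 0.064, 1.41-fold, limma adjusted p = 0.0019) and 0.67 for KO-labelled HSCs (SE 0.064, 1.59-fold, limma adjusted p = 0.00019).

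Itgb3 (chr11:104608000-104670476, plus strand, 16 exon blocks), the beta chain, which also pairs with integrin alpha V in other cells, was not called in any comparison. WT-labelled normal libraries held 101, 84.4 and 69 CPM and WT-labelled stressed libraries 109 and 103 CPM. KO-labelled normal libraries held 103, 117 and 115 CPM and KO-labelled stressed libraries 112 and 85.9 CPM. WT-labelled libraries were thus separate between conditions, and the KO-labelled ones were not. Its log2 difference was 0.34 (SE 0.16, adjusted p = 0.30 by limma) for WT-labelled and -0.18 (SE 0.16, adjusted p = 0.61 by limma) for KO-labelled HSCs. The averaged difference was 0.08 (SE 0.11), with an interval of -0.16 to 0.32 that lies below the 0.48 to 0.68 of Itga2b. Per kilobase of exon, the level of Itga2b over that of Itgb3 was 3.89 to 4.01 in KO-labelled normal and 6.37 to 8.02 in KO-labelled stressed libraries. The WT-labelled ratios, 5.16 to 7.51 in the normal and 6.32 to 7.0 in the stressed condition, overlapped.

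Among the signalling receptors, F2r (chr13:95601803-95618487, minus strand, 2 exon blocks) codes for protease-activated receptor 1, which responds to thrombin. It stood at 266, 274 and 273 CPM in WT-labelled normal and 418 and 431 CPM in WT-labelled stressed libraries. KO-labelled normal libraries held 279, 251 and 273 CPM and KO-labelled stressed libraries 407 and 405 CPM. The spread within a group was small beside the step between conditions, and the 2 genotypes overlapped in the normal condition. The conditions were apart by a log2 difference of 0.65 for WT-labelled HSCs (SE 0.058, 1.57-fold, limma adjusted p = 0.00015) and 0.60 for KO-labelled HSCs (SE 0.058, 1.52-fold, limma adjusted p = 0.00019). Whether mouse platelets themselves carry the F2r protein was not examined.

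Clec1b (chr6:129397297-129409335, plus strand, 6 exon blocks) codes for CLEC-2, the platelet receptor for podoplanin, and had by far the fewest reads of the 10 genes. In reads, WT-labelled normal libraries held an estimated 71, 66 and 67 and WT-labelled stressed libraries 52 and 26. KO-labelled normal libraries held 22, 7 and 24 reads and KO-labelled stressed libraries 76 and 76. The corresponding levels were 2.38, 2.21 and 2.15 CPM in WT-labelled normal, 1.86 and 0.907 CPM in WT-labelled stressed, 0.747, 0.225 and 0.747 CPM in KO-labelled normal and 2.6 and 2.99 CPM in KO-labelled stressed libraries. The 2 genotypes thus differed in opposite directions between conditions, with no overlap in either. KO-labelled HSCs had a log2 difference of 2.48 (SE 0.65, adjusted p = 0.056 by limma) and WT-labelled HSCs one of -0.79 (SE 0.65, adjusted p = 0.59 by limma), and neither was called. Clec9a, a gene on the same strand that shares 184 exonic bases with Clec1b, had log2 levels of -1.93 to 0.67 in KO-labelled normal and 1.30 to 1.62 in KO-labelled stressed libraries. In WT-labelled libraries its log2 level was -1.99 to 0.33 in the normal and -5.90 to -0.74 in the stressed condition. Its part in the Clec1b values was not tested.

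**Figure D3:**
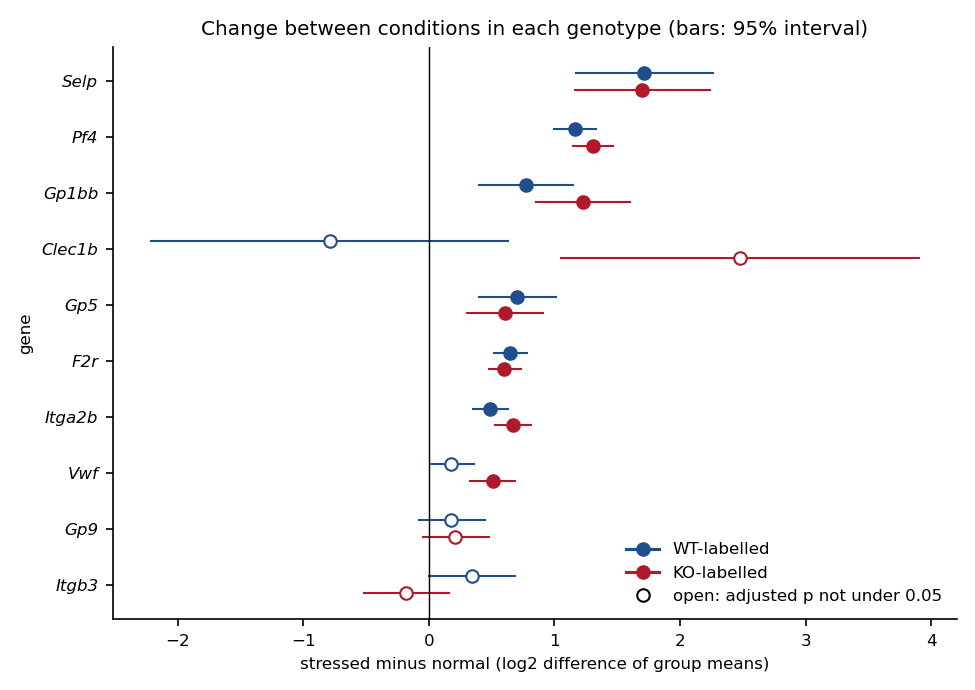
Stressed minus normal log2 difference (horizontal axis) of each gene in WT-labelled (blue) and KO-labelled (red) HSCs, with its 95% interval from limma as a bar; filled points have an adjusted p under 0.05. The intervals of the 2 genotypes overlap for each gene but Clec1b, where they run from -2.21 to 0.63 and from 1.05 to 3.90.

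Per kilobase of exon, the order of the genes by level was similar in the 4 groups. Pf4 had the highest mean level, at 176 and 198 CPM per kilobase in WT-labelled and KO-labelled normal HSCs and 394 and 491 CPM per kilobase in the stressed groups. Itga2b (75 to 120 CPM per kilobase) and F2r (80.2 to 127) came next and lay near each other in each group. Gp9 (48.8 to 63.5) and Gp5 (38.1 to 66.1) followed, and their order turned around between conditions. Their per-length ratio, Gp5 over Gp9, was 0.612 to 0.987 in normal and 0.907 to 1.15 in stressed libraries, which overlap. Itgb3 (14.4 to 18.9), Vwf (12 to 17.1), Gp1bb (9.56 to 22.4) and Selp (6.68 to 24.6) formed a lower tier. Selp was the lowest of these in normal HSCs and the highest in WT-labelled stressed HSCs. The place of Gp1bb is uncertain, as most of its exonic bases are shared with Sept5. Clec1b, at 0.112 to 0.547 CPM per kilobase, was the lowest in every group.

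Between genotypes, 0 of the 10 members were called in either condition by limma, and the difference in response between genotypes was called for 0. In stressed HSCs 0.145% of all genes were called. At an unadjusted p under 0.05 stood 1 of the 10 members (Pf4), near the 8.88% of all genes. Its KO minus WT log2 difference was 0.32 (SE 0.081, 95% interval 0.14 to 0.49, limma adjusted p = 0.27), with both KO-labelled above both WT-labelled libraries. The intervals of Itga2b (-0.16 to 0.14), F2r (-0.20 to 0.08) and Vwf (-0.15 to 0.24) were narrow around 0, while those of Selp (-0.81 to 0.37) and Clec1b (-0.46 to 2.66) left room for larger differences.

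In normal HSCs 1.56% of all genes were called. An unadjusted p under 0.05 was found for 5 of the 10 members and for 13.9% of all genes. Lower in KO-labelled HSCs were Vwf with -0.28 (SE 0.072, limma adjusted p = 0.093), Clec1b with -2.16 (SE 0.58, limma adjusted p = 0.11) and Itga2b with -0.18 (SE 0.057, limma adjusted p = 0.17). Higher were Itgb3 with 0.41 (SE 0.14, limma adjusted p = 0.21) and Pf4 with 0.17 (SE 0.066, limma adjusted p = 0.28). The libraries of the 2 genotypes did not overlap in these 5 or in Gp1bb and Gp9 (7 of 10, against 19.5% of all genes in either direction). The 2 chains of the fibrinogen receptor thus stood on opposite sides of 0 in normal HSCs, neither of them called.

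For the difference between the KO-labelled and the WT-labelled response, 0.0198% of all genes were called. At an unadjusted p under 0.05 stood 3 of the 10 members and 9.15% of all genes. These members were Clec1b with 3.26 (SE 0.92, limma adjusted p = 0.31), Vwf with 0.33 (SE 0.11, limma adjusted p = 0.42) and Itgb3 with -0.52 (SE 0.22, limma adjusted p = 0.51). The call of Vwf in KO-labelled and not in WT-labelled HSCs is therefore not shown to be a difference between them. The 95% interval of the difference in response was -0.08 to 0.38 for Pf4, -0.22 to 0.14 for F2r, -0.02 to 0.37 for Itga2b, -0.08 to 0.99 for Gp1bb and -0.78 to 0.75 for Selp. The 4 comparisons between groups share libraries with each other and with this test.

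Across the 10 libraries, which fall mainly by condition, the log2 levels of the 7 called genes had pairwise Pearson r of 0.73 to 0.96, and those of Itgb3 had r of -0.53 to 0.29 with the other members. The non-members most like the mean standardized level of the 10 genes, out of 11082 genes with a mean log2 level of at least 2, were Cd48, Actb, Serinc3 and Ache (r = 0.98 each, n = 10) and Gm43305 (r = 0.97). Cd48, a surface protein of many progenitors and mature leukocytes, had a level of 10.1 to 12.5 CPM in normal and 19 to 20.1 CPM in stressed libraries. Ache, which codes for acetylcholinesterase, an enzyme that rodent megakaryocytes are known to contain, differed by 1.03 (SE 0.12, limma adjusted p = 0.00035). For Pf4 the closest gene was Aurka, a kinase of the mitotic spindle (r = 0.99), for Itga2b Serinc3 (0.99), for F2r Gm11223 (0.99), for Gp1bb Ache (0.99) and for Selp Gm11223 (0.96). The closest to Gp5 was Ifih1 (0.97), to Gp9 Nat6 (0.96), to Vwf Slc16a10 (0.95), to Clec1b Zfp961 (0.93) and to Itgb3 BC002059 (0.91). These correlations are descriptions over shared libraries and carry no test.

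Of 25 other platelet receptor and adhesion genes listed, 21 were tested. With the genotypes averaged 4 were called higher and 1 lower in stressed HSCs, with a median of 0.22. The averaged shares of all genes tested, for this list and those below, were 3.94% higher and 4.36% lower. Beside Gp1ba, the called ones were F2rl2, protease-activated receptor 3, with 0.86 (SE 0.12, limma adjusted p = 0.00084), the tetraspanin Cd9 with 0.43 (SE 0.058, limma adjusted p = 0.00084) and Treml1, a receptor of platelet granules, with 0.47 (SE 0.12, limma adjusted p = 0.028). The junction protein gene Jam3 fell by 0.67 (SE 0.17, limma adjusted p = 0.034). Within WT-labelled HSCs 3 rose (F2rl2, Cd9 and Gp1ba) and 1 fell (Tspan9, -1.57, limma adjusted p = 0.028). In KO-labelled HSCs alone 6 rose, among them Tbxa2r, the thromboxane receptor, with 0.76 (limma adjusted p = 0.025) and Itga6 with 0.44 (limma adjusted p = 0.013), and 0 fell. The difference in response between genotypes was called for 0 of the 21 genes.

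Genes of granule cargo and cell shape moved in both directions: of 28 tested, 6 were called higher and 3 lower, with a median of 0.06. Serpine2, a protease inhibitor, rose by 1.15 (SE 0.27, limma adjusted p = 0.023) and Plek, the main protein kinase C substrate of platelets, by 0.76 (SE 0.075, limma adjusted p = 0.00011). Rap1b (0.48), Rab27b (0.44), Tgfb1 (0.41) and Fermt3 (0.34) also rose, of which Rap1b and Fermt3 act on the fibrinogen receptor from inside the cell and Rab27b in granule secretion. Thbs1, thrombospondin 1 of the alpha granule, fell by 0.76 (SE 0.16, limma adjusted p = 0.015), Mmrn1, multimerin 1, by 0.56 (SE 0.045, limma adjusted p = 2.9e-05) and Tbxas1, thromboxane synthase, by 0.38 (SE 0.038, limma adjusted p = 0.00011). Between genotypes in normal HSCs Thbs1 was higher in KO-labelled libraries by a log2 difference of 1.0 (limma adjusted p = 0.035), and the cytoskeletal genes Tln1 (-0.35, limma adjusted p = 0.005) and Flna (-0.36, limma adjusted p = 0.032) were lower.

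Of 24 genes described here for megakaryocyte transcription factors and thrombopoietin signalling, 2 were called higher and 0 lower, with a median of -0.04. Among all genes tested 3.94% were called higher, so a count this small says little about the list. Gata1 rose by 0.51 (SE 0.083, limma adjusted p = 0.0031), from 74.3 to 89.2 CPM in normal to 104 to 129 CPM in stressed libraries. Gfi1b, a repressor that works with Gata1, rose by 0.18 (SE 0.047, limma adjusted p = 0.04). Within a genotype, Gfi1b was called in WT-labelled (0.31, limma adjusted p = 0.027) and not in KO-labelled HSCs (0.04, limma adjusted p = 0.82). Gata1 was called in KO-labelled (0.58, limma adjusted p = 0.017) and not in WT-labelled HSCs (0.43, limma adjusted p = 0.075). The difference in response between genotypes was not called for Gata1 (0.14, limma adjusted p = 0.83) or Gfi1b (-0.27, limma adjusted p = 0.41). Neither gene is thus shown to respond differently in the 2 genotypes. Among the others, Fli1 (0.08), Runx1 (0.02) and Nfe2 (-0.07), named here for their known role after their values were seen, were not called (limma adjusted p = 0.40, 0.91 and 0.34).

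Of 15 genes listed for HSCs, some of which mark these cells by absence or a low level, 7 were called lower and 2 higher with the genotypes averaged. The median was -0.16. The lower ones were Fgd5 (-0.77), Mllt3 (-0.65), Hlf (-0.57), Procr (-0.43), Mecom (-0.37), Ly6a (-0.30) and Kit (-0.16). The higher ones were Cd48 (0.80), the protein of progenitors and mature leukocytes named above, and Cd34 (0.24). Hlf, a transcription factor gene of HSCs, stood at 400 to 492 CPM in normal and 286 to 338 CPM in stressed libraries (SE 0.047, limma adjusted p = 2.9e-05). Slamf1, also called CD150, was not called (0.19, SE 0.10, limma adjusted p = 0.33). Hlf and Mllt3 were called lower within each genotype. Procr was called in KO-labelled (-0.68, limma adjusted p = 0.012) and not in WT-labelled HSCs (-0.18, limma adjusted p = 0.52). Kit was called in WT-labelled (-0.26, limma adjusted p = 0.022) and not in KO-labelled HSCs (-0.07, limma adjusted p = 0.55). The difference in response between genotypes was not called for Procr (-0.5, limma adjusted p = 0.44) or Kit (0.19, limma adjusted p = 0.49). The platelet lineage genes thus differed between conditions in libraries in which transcripts of this list differed too, and the part of one in the other was not tested.

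**Figure D4:**
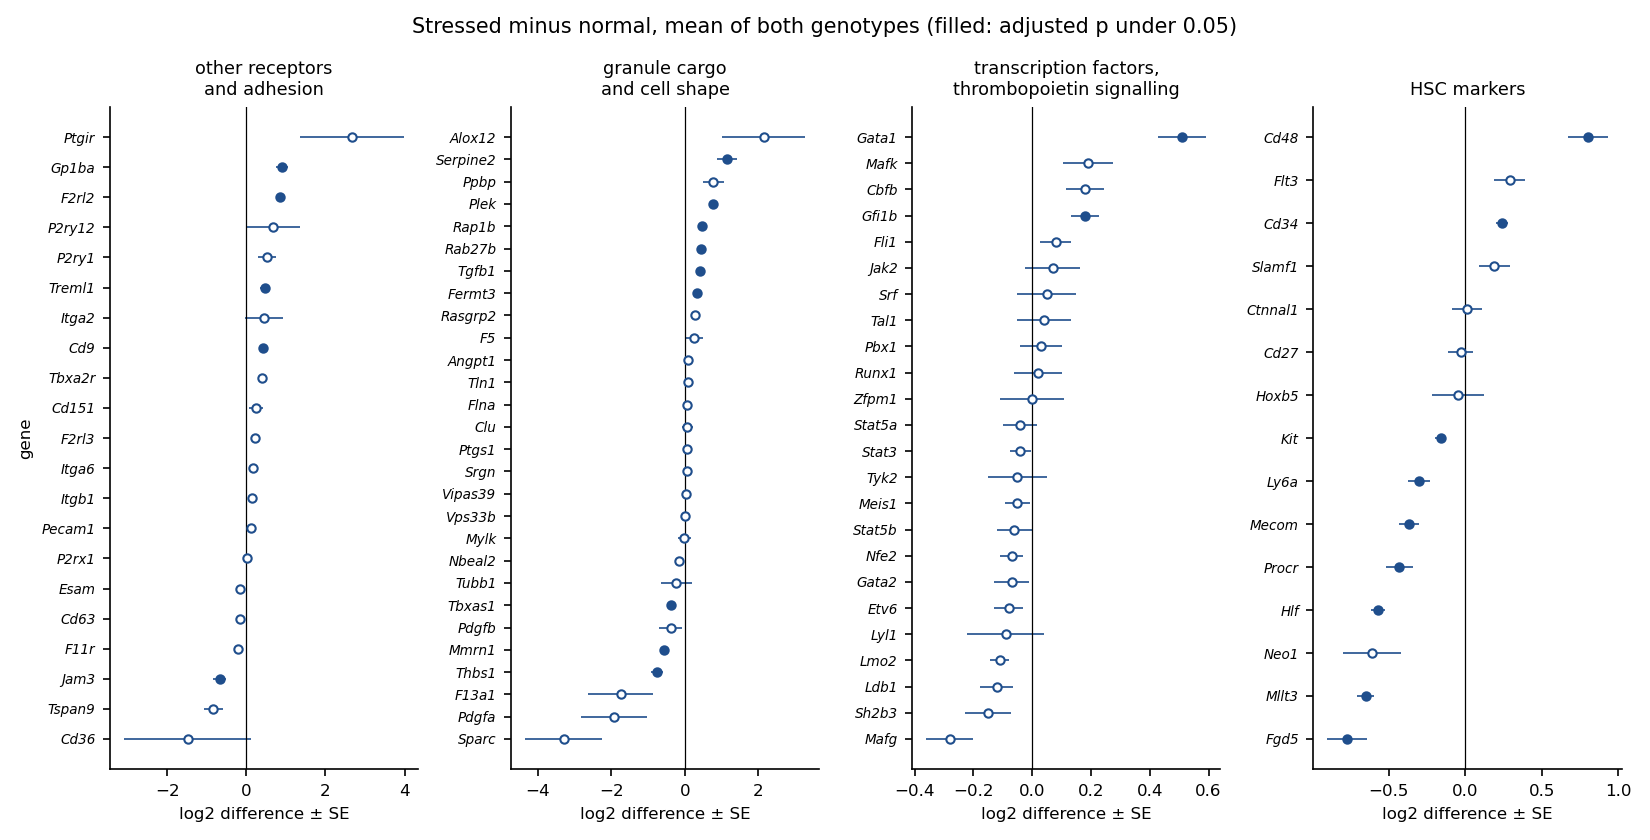
Stressed minus normal log2 difference (horizontal axis, mean of both genotypes, bars are the SE, a separate scale in each panel) for each tested gene of 4 lists; filled points have an adjusted p under 0.05. Gp1ba and F2rl2 lead the called receptor genes, Gata1 (0.51) has the largest difference in the third panel, and 7 of the 9 called genes of the HSC list lie below 0.

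Markers of other cells that a sort could carry along were summed in each library. Of 9 mature platelet markers 7 were in the table, and their sum was 110 to 124 CPM in normal and 151 to 170 CPM in stressed libraries. Of these, Gp1ba and Treml1 were called higher and 0 lower. Tubb1, the platelet tubulin, stood at 1.28 to 5.01 CPM over all libraries and Ppbp, an abundant platelet chemokine, at 2.08 to 4.84 CPM in normal and 3.35 to 8.63 CPM in stressed libraries, a difference that was not called (0.78, SE 0.29, limma adjusted p = 0.14). The part of platelets or megakaryocytes in the sorted cells was not tested. Endothelial cells also make Vwf and Selp. Of 14 endothelial and stromal markers 12 were in the table, with a sum of 380 to 457 CPM in normal and 344 to 391 CPM in stressed libraries. With the genotypes averaged, 0 of the 9 tested were called by limma, and Col1a2 and Tie1 had an unadjusted p under 0.05. The bulk of the sum was Tie1, at 235 to 323 CPM. Egfl7 (45.3 to 63 CPM), Emcn (27.7 to 42.5 CPM) and Kdr (7.61 to 16.6 CPM) were also present in every library. Cdh5, the cadherin that defines endothelial cells, had 0 reads in all 4 stressed libraries and at most 0.383 CPM elsewhere. Plvap, Stab2, Flt1 and Flt4 did not exceed 5.06 CPM in any library. The part of endothelial cells in the sorted cells was not tested.

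The sum of 13 erythroid markers was 229 to 260 CPM in normal, 176 to 188 CPM in KO-labelled stressed and 128 to 133 CPM in WT-labelled stressed libraries. Of 12 tested 4 were called lower, with the smallest p for Car1 (-1.01, SE 0.072, limma adjusted p = 1.1e-05), and 0 higher. The 15 granulocyte and monocyte markers summed to 346 to 481 CPM in normal and 402 to 429 CPM in stressed libraries, with Ms4a3 called higher and S100a8 and S100a9 lower. For 8 lymphoid and plasma cell markers the sum was 40.1 to 54.7 CPM in all libraries but those of the KO-labelled stressed group, where it was 203 to 205 CPM. There Igkc stood at 130 to 136 CPM and Jchain at 26.7 to 27.7 CPM. The part of this signal in the members' values was not tested. The 5 mast cell and basophil markers summed to 6.05 to 9.73 CPM in normal and 10.9 to 15 CPM in stressed libraries, with 0 of 3 tested called.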

How the data were processed

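Per the submitters' processing notes, reads were aligned with Bowtie2 to mm10 and counted per gene with featureCounts; versions, strand and the filter behind the 20270 listed genes are not given in the sources used here. The deposited values are log2 CPM made by the authors, and limma voom is named only in the title of their table. All 10 libraries share nearly 1 distribution down to -5.90, so the values had been quantile normalized, which gives genes of equal rank equal values and can shrink the spread of abundant genes. A gene at -5.90 had 0 reads. The reads behind 1 CPM were estimated from the stepped low values of each library, taken to stand for whole reads (10 to 100 reads). The largest deviation of a step from this estimate was 2% to 12.5%, depending on the library. Intervals cover the spread between libraries only.

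Genes with a log2 value above 0 in at least 2 libraries were tested (15143, all 10 members among them) with limma 3.58.1 in R 4.3.3: 4 group means, 6 residual degrees of freedom, variances moderated along the mean level, Benjamini-Hochberg adjustment over all genes in each of 6 contrasts, threshold 0.05. Tested on simulated data of 15143 genes with 200 changed 2-fold, the fit called 50.5% of these for stressed against normal in WT-labelled HSCs (8 false calls), 47.5% in KO-labelled HSCs (2) and 48% for KO against WT in normal HSCs (6). Levels in CPM are 2 to the power of the log2 values. Coordinates and exon lengths come from GENCODE vM21 on mm10, which held 20199 of the identifiers, promoters from RefSeq. Plots were drawn with matplotlib 3.10.9 in Python 3.11.15. Members, lists, motifs and the naming rule were chosen with earlier results of these data known. The rule names the 10 members, Id1, any called gene of a list or the 4 with the smallest p, and the genes closest in pattern. Slamf1, Tubb1, Cdh5, Fli1, Runx1 and Nfe2 fall outside it and were named for their known role after their values were seen. The endothelial markers given beside Cdh5 were named for their levels, and genes that overlap a member for their position. Some listed genes stand in 2 lists (Gp1ba and Treml1 among them). Over all genes tested, replicate letters did not pair the libraries. Alternatives covered moderation, filters, a pseudocount, a floor of 3 reads, centring, library weights, a replicate block, the libraries fitted, the threshold and leaving out each library. A listed gene is not reported here.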

Additional observations from a re-analysis of the deposited data

Results flagged for a closer look

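Clec1b was higher in stressed than in normal KO-labelled HSCs and lower in stressed than in normal WT-labelled HSCs, with every library of each group on its side. The difference between the 2 changes was 3.26 on the log2 scale (SE 0.92) and had an unadjusted p = 0.0043 in limma. After adjustment over all genes it was not past the threshold (limma adjusted p = 0.31, and 0.23 to 0.56 over 19 alternatives). Its size was 1.76 to 3.78 over the same alternatives, and the values rest on an estimated 7 to 76 reads per library.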

How the results depend on the processing

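With the genotypes averaged, 7 members were called higher in the main analysis and under all alternatives that could be run. In WT-labelled HSCs the count was 6, and 4 to 6 over the alternatives, and in KO-labelled HSCs it was 7, and 5 to 8. Clec1b was the member added, with log2(CPM + 1), a floor of 3 reads, library weights or a threshold of 0.1. That threshold also called 1 member between genotypes in normal HSCs (Vwf, limma adjusted p = 0.093), where all other alternatives called 0. Without the variance trend 4 and 5 members were called in WT-labelled and KO-labelled HSCs. A replicate block on the library letters gave 4, 6 and 7 members (WT-labelled, KO-labelled and averaged). Over all genes tested, same-letter libraries did not deviate together (correlations -0.02 to 0.04). A deviation shared by letter in only some genes was not tested. Leaving out 1 library gave 4 to 6 members in WT-labelled and 5 to 7 in KO-labelled HSCs, 7 averaged, and 0 in the comparisons that involve genotype. Of the members' values, 20 changed sign, all uncalled and all with 1 library left out. The ranges without 1 library were -0.02 to 0.18 for Itgb3 averaged and -0.37 to 0.01 for Itgb3 in KO-labelled HSCs. Between genotypes in stressed HSCs they were -0.31 to 0.08 for Itgb3, -0.03 to 0.12 for Vwf and -0.04 to 0.02 for Itga2b, and in normal HSCs -0.42 to 0.02 for Selp and -0.05 to 0.02 for F2r. For the difference in response they were -0.24 to 0.20 for Selp, -0.05 to 0.11 for Gp9 and -0.21 to 0.02 for Gp5. The cause of these changes was not tested. Counts over all genes moved more: 500 (253 to 872, lowest without WT-labelled normal library A) in WT-labelled, 682 (249 to 1067, lowest with only these 2 groups fitted) in KO-labelled and 1256 (773 to 1891, lowest with the replicate block) averaged. Between genotypes they were 22 (0 to 54) in stressed and 236 (45 to 400) in normal HSCs, and 3 (1 to 26) for the difference in response. Fitting only the groups compared does not apply to the averaged difference or the difference in response, which use all 4. Clec1b was left out by a filter at a log2 value of 2, and with 2 libraries in each stressed group 1 library can decide a call near the threshold.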
